A study of Mus musculus with 19 samples.

Results

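The DNA replication machinery was followed through 44 genes, chosen by symbol as a list of the factors that copy the genome, out of 35825 mouse genes in the count table. All 44 passed the filter on low counts and are among the 19411 genes tested across the 3 groups of tumors, and the lowest estimated count of any of them in any tumor was 118. The data are messenger RNA from 19 mouse neuroblastomas, each sequenced once. All mice were heterozygous for R26.FSF.FGFR1-N546K, a mutant receptor behind a stop cassette at the Rosa26 locus, and for Th-IRES Cre. By the paper's main text, Cre under the tyrosine hydroxylase promoter removes that cassette through loxP sites. A supplementary legend of the paper names FRT sites and the Flp recombinase instead. The 8 FGFR1 tumors carried no further transgene, 4 of them being taken at 6 to 7 days of age and 4 at 14 days. The 11 FGFR1;MYCN tumors were also heterozygous for Th-MYCN, human MYCN under the tyrosine hydroxylase promoter, and came from 8 mice aged 18 to 21 days, 3 of which gave an adrenal and a pelvic tumor each. No FGFR1 tumor was as old as an FGFR1;MYCN tumor, and genotype and age cannot be told apart in any comparison between them. The tumors are bulk tissue, in which fewer cells of a type and less RNA per cell cannot be told apart.

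Replication starts at origins. The origin recognition complex, with CDC6 and CDT1, loads the ring of MCM proteins onto DNA in G1 phase, and geminin blocks loading afterwards. The kinase CDC7 with its partner DBF4, together with MCM10, CDC45 and the GINS complex, turns the loaded ring into a moving helicase. DNA polymerase alpha with primase begins each strand, polymerases delta and epsilon extend it on the sliding clamp PCNA, which the RFC complex loads, RPA covers single strands, and FEN1 and LIG1 join the fragments of the lagging strand. Ribonucleotide reductase, thymidylate synthase and thymidine kinase supply the nucleotides. Transcription of many of these genes rises at the border of G1 and S phase under E2F transcription factors, and MYC proteins, MYCN among them, are known to drive cells into that phase.

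Total counts lay between 40010738 and 75882643 per tumor. Markers of the neuroblast lineage (13 of 13) had counts in each of the groups and took 0.157% to 0.639% of the counts of a tumor. Their median share differed between the groups, at 0.35% at 6 to 7 days, 0.209% at 14 days and 0.453% in FGFR1;MYCN tumors. FGFR1;MYCN tumor 11 stood apart: 7.15% of its counts came from a list of 6 liver genes and 6.12% from 8 genes of the exocrine pancreas, with a median over the FGFR1;MYCN tumors of 0.00112% and 0.00171%. Liver genes also took up to 6.24% of counts in the 6- to 7-day FGFR1 tumors and up to 2.69% in the 14-day tumors. Markers of the tissue around a tumor differed between FGFR1;MYCN and FGFR1 tumors. All 6 fibroblast, all 6 endothelial and all 8 Schwann lineage markers were lower in FGFR1;MYCN tumors than in FGFR1 tumors of either age, and fibroblast genes took 0.046% to 0.185% of counts in FGFR1;MYCN tumors against 0.488% to 1.36% in FGFR1 tumors. Their part in the differences described here was not tested.

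To compare the members' promoters with those of all tested genes, the words of known binding motifs were searched on both strands. The windows ran from 250 bases before to 50 after each RefSeq transcription start (GRCm38.p6). Windows were at hand for 36 of the 44 members, 43 windows in all. The E2F motif was searched as TTTCCCGC, TTTCGCGC, TTTGCCGC and TTTGGCGC. It was found in 14 of 36 members (38.9%), and in 534 of 13752 tested genes with a window (3.88%). Over single windows the shares were 32.6% of the members' and 2.26% of all 32851. The 14 members were Orc1, Cdc6, Cdt1, Mcm3, Mcm5, Mcm6, Mcm7, Mcm8, Gins3, Pola1, Pold1, Pole2, Rfc3 and Lig1. The CCAAT word of NF-Y was in 23 of 36 members (63.9%, against 42.0% of tested genes), the E-box CACGTG, a word that MYC proteins bind, in 7 (19.4%, against 10.3%) and the CHR word TTTGAA of G2/M genes in 7 (19.4%, against 15.8%). Stretches of 4 of these promoters are shown, because Mcm8 was higher and Pole2 lower in FGFR1;MYCN tumors than in FGFR1 tumors of either age, Orc1 was higher than in the 14-day tumors but not past the test against the younger ones, and Mcm6 has the highest level of the MCM ring. Capitals mark the E2F words, read 5′ to 3′ on the strand of the gene. In Mcm6 the first capital run is made of a pair of overlapping words.
Mcm8, chr2:132816145-132816190, plus strand: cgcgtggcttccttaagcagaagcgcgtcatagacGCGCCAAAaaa
Orc1, chr4:108579392-108579469, plus strand: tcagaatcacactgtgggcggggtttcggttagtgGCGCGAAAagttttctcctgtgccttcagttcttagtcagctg
Pole2, chr12:69228141-69228215, minus strand: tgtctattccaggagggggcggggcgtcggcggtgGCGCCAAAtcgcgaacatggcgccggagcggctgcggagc
Mcm6, chr1:128359710-128359850, minus strand: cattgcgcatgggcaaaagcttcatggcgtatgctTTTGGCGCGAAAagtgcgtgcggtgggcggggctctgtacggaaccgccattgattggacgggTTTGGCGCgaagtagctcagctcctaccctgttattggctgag

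The words lay on both sides of the start. The first base of the E2F word was 39 bases after the start in Mcm8, 10 after it in Pole2 and 27 before it (-27) in Orc1. In Mcm6 the words began at -110, -106 and -47. A match describes these letters and is not a measured site of binding.

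**Figure D1:**
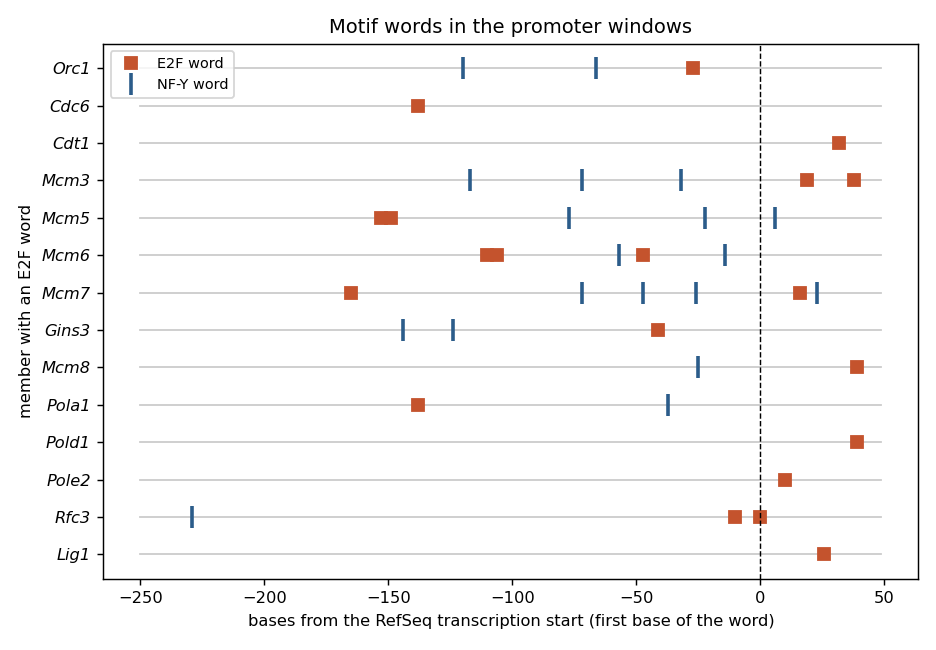
Positions of E2F words (squares) and NF-Y words (bars) in the promoter windows of the 14 members that hold an E2F word, as bases from the RefSeq transcription start, on either strand. E2F words lie both before and after the start, as in Orc1 (-27) and Mcm8 (39).

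The first comparison asks how the machinery differed between younger and older FGFR1 tumors. It was lower at 14 days across nearly all members, but no single member passed the test. The fitted log2 fold change (14 days minus 6 to 7 days) was below 0 for 41 of 44 members, with a median of -0.63, and below 0 for 53.7% of the 19411 genes tested, with a median of -0.04. By the quasi-likelihood test of edgeR, with p-values adjusted after Benjamini and Hochberg over all genes and a threshold of 0.05, 0 members passed, where 0.34% of all genes were higher and 0.67% lower. At an unadjusted p under 0.05, 19 members were lower and 0 higher (9.37% of all genes were lower). For 18 members each of the 4 tumors at 14 days lay below each of the 4 at 6 to 7 days (6.94% of all genes), and for 0 members above (4.08%). By the Wald test of DESeq2, 4 members passed (9.09%), Cdc7, Dbf4, Orc1 and Pole, each lower at 14 days, where of the 18574 genes with an adjusted p 2.72% were lower and 2.59% higher. The mean of the 44 log2 CPM values (log2 of counts scaled to library size with TMM factors, prior count 2) was 4.64, 4.47, 4.83 and 4.77 in the younger tumors and 3.69, 4.23, 4.14 and 4.35 in the older ones, so the ranges did not overlap.

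The lowest fitted difference was that of Pole, the catalytic subunit of DNA polymerase epsilon. Its log2 CPM was 4.31, 4.58, 4.34 and 4.69 at 6 to 7 days and 2.90, 3.89, 2.36 and 3.56 at 14 days. The older tumors were all lower and were also farther apart, and the log2 fold change was -1.20 ± 0.39 (SE, adjusted p = 0.134, edgeR). Orc1, a subunit of the origin recognition complex, measured 1.88, 1.97, 1.81 and 2.17 against 1.07, 1.52, 1.23 and 1.03 log2 CPM. Its ranges did not overlap either, at a log2 fold change of -0.75 ± 0.22 (adjusted p = 0.105, edgeR). The other large differences were in Mcm5 (-1.10), Mcm10 (-1.08), Dbf4 (-1.01), Cdc6 (-0.98) and Lig1 (-0.95). Rpa3 (0.39), Gins4 (0.08) and Orc6 (0.06) were the 3 members with a positive value.

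The number of members that lay lower varied between the roles, which no test compared. The nucleotide supply genes Rrm1, Rrm2, Tyms and Tk1 were all lower at an unadjusted p under 0.05, as were 4 of the 6 MCM ring genes, 4 of 8 primase and polymerase genes, 3 of 8 genes of helicase activation, 3 of 6 of origin recognition and loading and 1 of 2 of fragment joining. Of the clamp and clamp loader (6 genes) and of RPA (3 genes) none was. Pcna, the clamp itself, measured 7.09, 6.53, 6.88 and 6.95 log2 CPM in the younger tumors and 6.22, 6.60, 7.32 and 6.65 in the older ones, and its groups overlapped (log2 fold change -0.12 ± 0.45). The median log2 fold change of the MCM ring was -0.72, that of the nucleotide genes -0.87 and that of the clamp and its loader -0.23.

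Among 44 other replication genes, 2 passed this test, and both were lower at 14 days. Recql4, a helicase needed to assemble the active helicase, fell by 1.03 on the log2 scale (SE 0.22, adjusted p = 0.0347, edgeR), and Wdhd1, which ties polymerase alpha to the helicase, by 1.03 (SE 0.21, adjusted p = 0.027, edgeR). Of 34 G1/S regulators, 0 passed. At an unadjusted p under 0.05, 8 of them were lower and 3 higher by edgeR. Of the 19411 genes tested, 1819 were lower and 1284 higher at that threshold. The 5 proliferation markers that the study itself used, Pcna among them, had a median of -1.24 and none passed. Markers of other cells also differed between these groups, and none passed the test of edgeR. Adrenal cortex genes were all above 0 (8 of 8), with a median of 2.67 and with 0.00954% to 0.161% of counts at 6 to 7 days and 0.00124% to 1.22% at 14 days. Neuroblast markers were below 0 in 12 of 13 cases, 4 of them at an unadjusted p under 0.05, with 0.299% to 0.437% of counts in the younger and 0.157% to 0.429% in the older tumors. Brown adipose markers were above 0 in 4 of 4 cases (median 1.44, smallest adjusted p = 0.0558, edgeR), and epithelial markers below 0 in 6 of 6 (median -2.43). Skeletal muscle markers had a median of 3.08 and took 0.907% of counts in the first 14-day tumor, the one with the lowest mean of the members. Without that tumor the members' median was -0.46 and again 0 passed. The part of these cells in the members' lower levels was not tested.

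**Figure D2:**
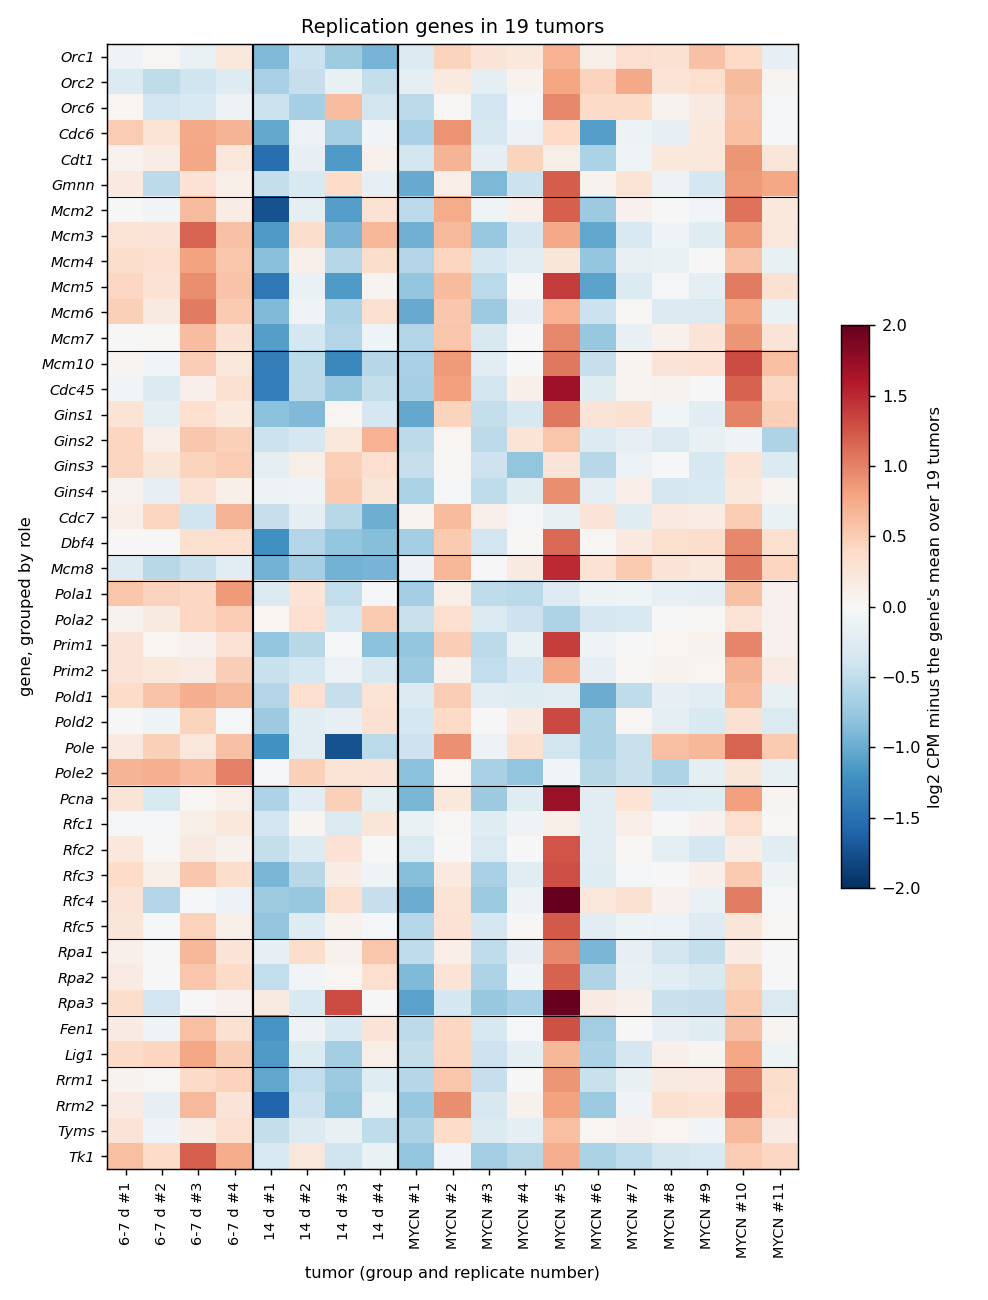
Log2 CPM of each of the 44 members (rows, grouped by role) minus its own mean over the 19 tumors, for each tumor (columns, by group and replicate number); the color scale is cut at -2 and 2. The 14-day FGFR1 tumors are mostly blue, the 6- to 7-day tumors mostly red, and the FGFR1;MYCN tumors range from 1 member above its mean in tumor 1 to 43 in tumor 10.

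The second comparison sets FGFR1;MYCN tumors against 14-day FGFR1 tumors. Higher in FGFR1;MYCN tumors by edgeR were 2 of 6 genes of origin recognition and loading and 4 of 8 of helicase activation. So were 2 of 4 genes of nucleotide supply, 1 of 8 primase and polymerase genes, and Mcm8. By edgeR the MCM ring, the clamp with its loader and RPA had no member past the test. All 6 ring genes and all 6 clamp and loader genes had values above 0, while 2 of the 3 RPA genes were below 0. Over all members 35 of 44 were above 0, and over the genes tested 9949 of 19411. DESeq2 also called Mcm2 and Mcm7 of the ring higher. In all, 10 of 44 members by edgeR were higher (22.7%) and 1 was lower (2.27%), and of the 19411 genes tested 19.6% were higher and 23.7% lower, so that the share of higher members was close to that of all genes. The members' median log2 fold change was 0.38, against 0.03 for all genes. Fully separate groups were seen for 2 members that were higher (7.56% of all genes) and 0 that were lower (9.6%). Of the study's 5 proliferation markers 3 were higher and 0 lower by edgeR (median 0.91). Neuroblast markers had a median of 0.85, with 7 of 13 higher and 2 lower. Adrenal cortex genes had a median of -4.53, with 5 of 8 lower and 0 higher. The part of neuroblast and cortex cells in the members' values was not tested.

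Mcm8 showed the largest difference. MCM8 forms a helicase with MCM9 that acts in recombination repair and is not part of the loaded MCM ring. Its log2 CPM was 3.17, 2.87, 2.97 and 3.20 at 6 to 7 days and 2.48, 2.76, 2.48 and 2.495 at 14 days. In the FGFR1;MYCN tumors it ran from 3.32 over a median of 3.71 to 4.91. Each of the 11 tumors lay above all 8 FGFR1 tumors. The log2 fold change against 14 days was 1.39 ± 0.26 (adjusted p = 0.000254, edgeR), or 2.63-fold.

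Orc1 was next in adjusted p. In the FGFR1;MYCN tumors it ran from 1.68 over 2.25 to 2.64 log2 CPM, above all 4 of the 14-day tumors, at a log2 fold change of 1.02 ± 0.20 (adjusted p = 0.00035, edgeR). Of its 31-base words 11.0% are shared with other genes, mostly with Gm12743, which overlaps it on the opposite strand. Orc2, another subunit of the complex and the one with the highest level of its list, measured 5.23, 4.996, 5.11 and 5.25 at 6 to 7 days, 4.86, 5.05, 5.37 and 5.04 at 14 days and 5.31, 5.77 and 6.29 (lowest, median, highest) in FGFR1;MYCN tumors. The difference from 14 days was 0.74 ± 0.18 (adjusted p = 0.00243, edgeR), with an overlap at its lower end. Orc2 shares 27.9% of its 31-base words with Nif3l1, a gene on the opposite strand whose exons overlap it, and Nif3l1 was higher too, by 1.03 ± 0.20 (adjusted p = 0.00035, edgeR). The library kit marks strand but the counting parameters given name no strand option, so the values of this pair are uncertain. Orc6, Cdc6, Cdt1 and Gmnn had positive values that did not pass by edgeR (0.31 to 0.74), and DESeq2 called Cdt1 higher.

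Of the genes that start the helicase, Mcm10, Cdc45, Cdc7 and Dbf4 were higher and the 4 GINS subunits did not pass by edgeR, while DESeq2 also called Gins1 higher. Mcm10 measured 3.43, 3.33, 3.87 and 3.60 at 6 to 7 days and 1.999, 2.85, 2.09 and 2.81 at 14 days. In FGFR1;MYCN tumors it ran from 2.73 over 3.64 to 4.68, so that the lowest of them lay within the range of the 14-day tumors (1.30 ± 0.33, adjusted p = 0.00406, edgeR). Cdc45 was higher by 1.19 ± 0.37, Dbf4 by 1.18 ± 0.27 and its kinase Cdc7 by 0.66 ± 0.20. Gins2, the member with the highest level in this list, measured 5.14, 4.85, 5.26 and 5.19, then 4.28, 4.38, 4.95 and 5.42, and 4.10, 4.56 and 5.28 in FGFR1;MYCN tumors. Its groups overlapped (-0.23 ± 0.22), and it is uncertain, since 66.2% of its 31-base words are shared with the overlapping gene Gse1.

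The 6 genes of the MCM ring were all above 0, from 0.08 in Mcm3 to 0.79 in Mcm2, and none passed by edgeR (smallest adjusted p = 0.0576). The calls of Mcm2 and Mcm7 depended on the tool: DESeq2 and limma on the variance-stabilized values called both higher, and edgeR called Mcm7 with RLE factors or without FGFR1;MYCN tumor 11. Mcm6, the member with the highest level, measured 6.42, 6.13, 6.98 and 6.47 at 6 to 7 days, 5.06, 5.88, 5.32 and 6.27 at 14 days and 4.94, 5.78 and 6.72 in FGFR1;MYCN tumors. The last range covered the whole range of the 14-day tumors.

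Among the subunits of polymerase epsilon, Pole and Pole2 went opposite ways. The further subunits Pole3 (-0.23 ± 0.21) and Pole4 (0.06 ± 0.29), from the list of other replication genes, did not pass by edgeR. Pole was higher by 1.13 ± 0.34 (adjusted p = 0.0121, edgeR), with 3.47, 4.41 and 5.27 log2 CPM as lowest, median and highest in FGFR1;MYCN tumors. Pole2, an accessory subunit, was lower by 0.58 (log2 fold change -0.58 ± 0.20, adjusted p = 0.0226, edgeR) and was the 1 member lower in this comparison. Pole2 measured 3.08, 3.11, 3.01 and 3.41 at 6 to 7 days, 2.36, 2.87, 2.67 and 2.65 at 14 days and 1.58, 1.94 and 2.64 in FGFR1;MYCN tumors. All 11 of these lay below the younger tumors, and their upper end reached into the range of the older ones. As a description chosen after these values were seen, the difference Pole2 minus Pole within a tumor was -1.48 to -1.23 log2 at 6 to 7 days, -1.02 to 0.30 at 14 days and -2.92 to -1.41 in FGFR1;MYCN tumors. Of the 31-base words of Pole2, 11.0% are shared, mostly with Gm49384, which overlaps it on the same strand at a lower level (0.46 against 2.39 log2 CPM on average) and did not differ past the test (-0.09 ± 0.54).

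The remaining polymerase genes did not pass by edgeR, and DESeq2 called Prim1. Prim1, the small primase subunit and the highest of its list, measured 4.74, 4.53, 4.57 and 4.77, then 3.72, 3.94, 4.46 and 3.67, and 3.72, 4.53 and 5.88 in FGFR1;MYCN tumors (0.78 ± 0.31, adjusted p = 0.0532, edgeR). Pcna ran from 5.92 over 6.62 to 8.57 in FGFR1;MYCN tumors and covered both FGFR1 ranges (0.32 ± 0.38). Rpa1, the large RPA subunit, measured 5.78, 5.68, 6.34 and 5.93, then 5.50, 6.03, 5.75 and 6.23, and 4.76, 5.50 and 6.63 (-0.32 ± 0.25). Lig1 measured 5.38, 5.43, 5.77 and 5.48, then 3.86, 4.71, 4.31 and 5.11, and 4.36, 4.89 and 5.77 (0.48 ± 0.26). The FGFR1;MYCN tumors lay within and on both sides of the 14-day range in Pcna and Rpa1, and within and above it in Prim1 and Lig1.

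Both subunits of ribonucleotide reductase were higher. Rrm1, the large subunit, measured 6.60, 6.56, 6.92 and 6.99 at 6 to 7 days and 5.49, 6.04, 5.81 and 6.29 at 14 days. It ran from 5.97 over 6.72 to 7.56 in FGFR1;MYCN tumors (0.84 ± 0.27, adjusted p = 0.0178, edgeR). Rrm2 measured 5.80, 5.48, 6.29 and 5.90, then 4.06, 5.20, 4.85 and 5.53, and 4.88, 5.92 and 6.77 (0.93 ± 0.34, adjusted p = 0.0321, edgeR). In both genes the FGFR1;MYCN tumors overlapped the 14-day tumors at their lower end. Tyms (0.46 ± 0.19) and Tk1 (0.02 ± 0.27) did not pass by edgeR, and DESeq2 called Tyms higher.

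By DESeq2, 16 members were higher (36.4%) and 1 lower, where 23.9% of the 19325 genes with an adjusted p were higher and 24.2% lower. Without FGFR1;MYCN tumor 11, 13 members were higher and 1 lower by edgeR (21.6% and 29.6% of all genes). Without FGFR1;MYCN tumor 5, 11 were higher and 2 lower (22.5% and 25.3% of all genes), Rpa1 joining Pole2, and without either the second or the third 14-day tumor 0 were lower. Rrm2 lost its call without the first, the second or the third 14-day tumor, and Cdc7 without the fourth.

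**Figure D3:**
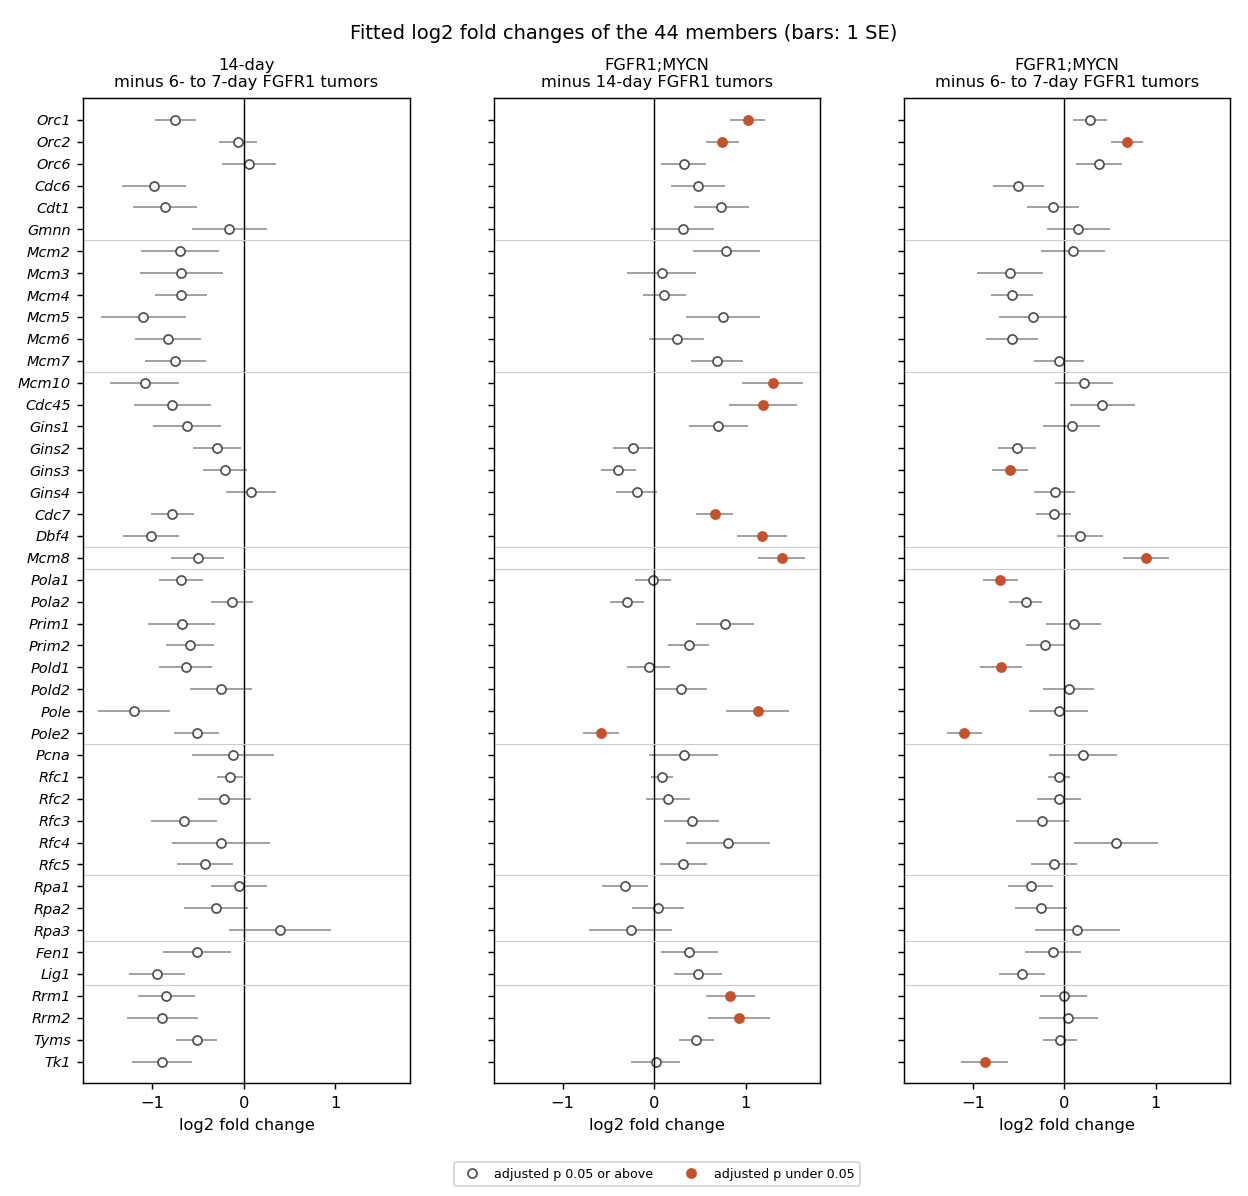
Fitted log2 fold change (points) with 1 SE (bars) of each member in the 3 comparisons between groups; filled points passed the quasi-likelihood test of edgeR (adjusted p under 0.05). No point is filled for age, 11 are filled against the 14-day tumors (10 higher and 1 lower) and 7 against the 6- to 7-day tumors (2 higher and 5 lower).

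In the comparison with 6- to 7-day FGFR1 tumors, the FGFR1;MYCN tumors are the same tumors as in the comparison before. Here Mcm8 and Orc2 were higher (2 of 44, 4.55%), and Gins3, Pola1, Pold1, Pole2 and Tk1 lower (5 of 44, 11.4%), where 10.2% of all genes were higher and 18% lower. The members' median log2 fold change was -0.09, against 0.00359 for all genes. The groups were fully separate for 2 members that were higher (5.21% of all genes) and for 1 that was lower (10.2%). The study's 5 proliferation markers had a median of 0.05 and none passed by edgeR.

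Mcm8 was higher by 0.89 ± 0.25 (adjusted p = 0.0114, edgeR) and Orc2 by 0.68 ± 0.18 (adjusted p = 0.00709, edgeR), and all 11 FGFR1;MYCN tumors lay above all 4 younger tumors in both genes. For Nif3l1, which shares words with Orc2, the value was 0.72 ± 0.19 (adjusted p = 0.00855, edgeR). Pole2 had the largest fall, by 1.09 (log2 fold change -1.09 ± 0.19, adjusted p = 0.000289, edgeR), or 2.13-fold. Pole did not differ past the test (-0.06 ± 0.32).

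The other lower members were Tk1, thymidine kinase (-0.87 ± 0.26), Pola1 and Pold1, the catalytic subunits of polymerases alpha and delta (-0.70 ± 0.19 and -0.69 ± 0.23), and Gins3 (-0.59 ± 0.19). Gins3 measured 2.73, 2.54, 2.76 and 2.81 at 6 to 7 days, 2.11, 2.43, 2.77 and 2.64 at 14 days and 1.52, 2.03 and 2.58 in FGFR1;MYCN tumors, where the highest reached into the younger range. Its call was lost without FGFR1;MYCN tumor 11 and under 9 more of its 27 alternatives. The call of Pold1 was lost in 7 of its 27 alternatives, among them the fit on summed tumors of each mouse (adjusted p = 0.0695, edgeR) and the fits without FGFR1;MYCN tumor 5 or without the second, the third or the fourth of the younger tumors. Tk1 lost its call without the third of these and Pola1 without the fourth. The count of lower members was 2 without the third or the fourth of the younger tumors, and 3 without the third 14-day tumor, which is in neither group of this comparison.

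Against all 8 FGFR1 tumors, on 18321 genes, 4 members were higher, Orc1 (0.60 ± 0.18), Orc2 (0.71 ± 0.14), Cdc45 (0.75 ± 0.30) and Mcm8 (1.12 ± 0.21), where 19.5% of all genes were. Lower were 2 members, Gins3 (-0.50 ± 0.16) and Pole2 (-0.86 ± 0.17), where 24.5% of all genes were. Side by side, the value against 14 days and that against 6 to 7 days was 1.39 and 0.89 for Mcm8, 0.74 and 0.68 for Orc2, and -0.58 and -1.09 for Pole2, from comparisons that share the FGFR1;MYCN tumors. Cdc45 passed at an adjusted p of 0.0477 (edgeR) and lost the call in 11 of 26 alternatives. The count of lower members was 5 without FGFR1;MYCN tumor 5, and 4 without FGFR1;MYCN tumor 10 or the third 14-day tumor.

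**Figure D4:**
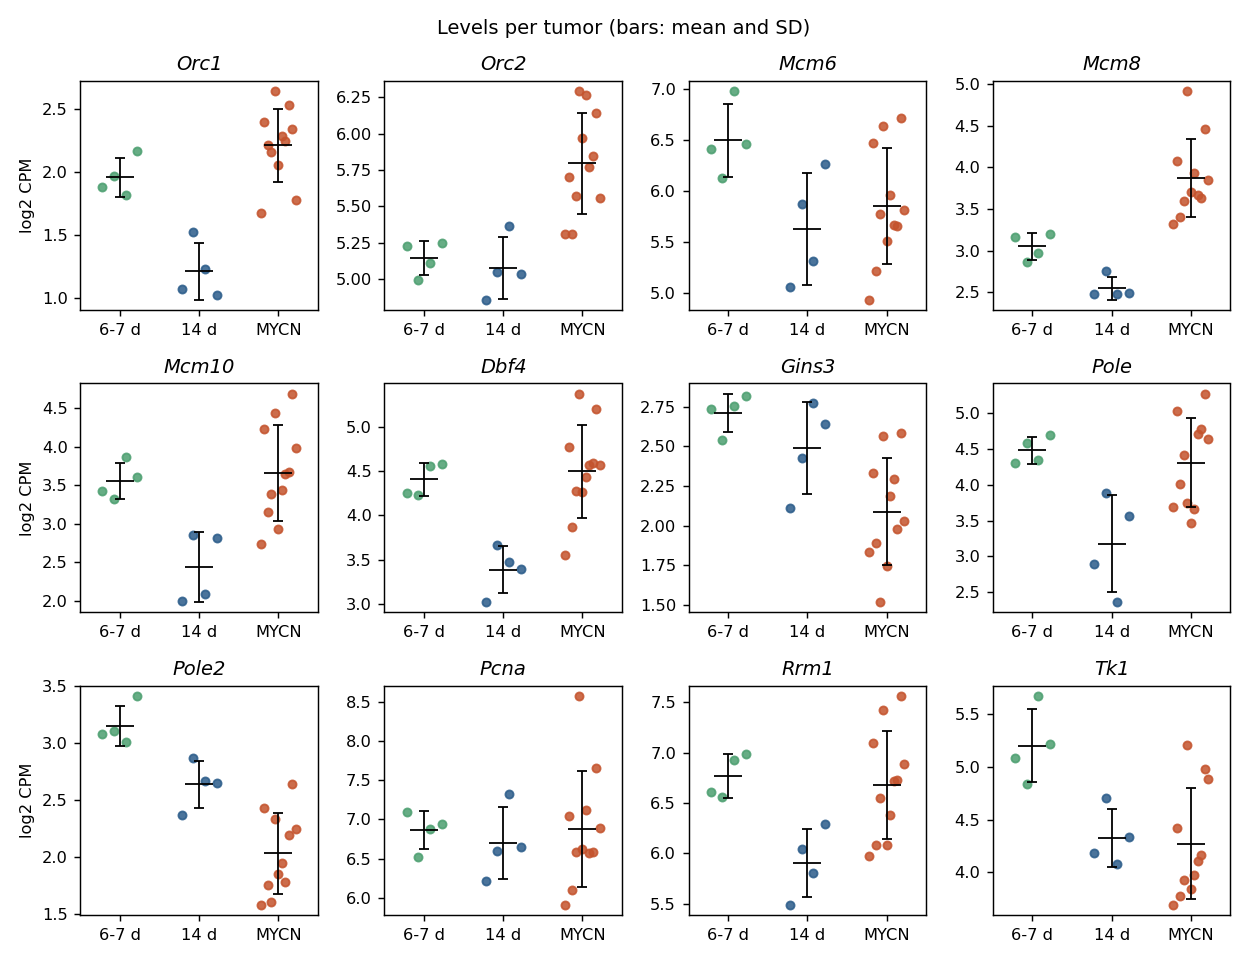
Log2 CPM of 12 members in each tumor by group (points), with the mean and SD of each group (bars). All 11 FGFR1;MYCN tumors lie above all 8 FGFR1 tumors for Mcm8 and below all 4 of the 6- to 7-day tumors for Pole2, while Mcm6 and Pcna overlap between all groups.

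The members whose promoter window held an E2F word are set beside the other members with a window. Against the 14-day tumors (19.6% of all genes higher and 23.7% lower) 2 of the 14 were higher (Orc1 and Mcm8) and 1 lower (Pole2), with a median log2 fold change of 0.44, and of the 22 members with a window and no E2F word 7 were higher and 0 lower, with a median of 0.42. Against the 6- to 7-day tumors (10.2% of all genes higher and 18% lower) 1 of the 14 was higher and 4 were lower (Gins3, Pola1, Pold1 and Pole2), with a median of -0.48, and of the other 22, 1 was higher and 1 lower, with a median of 0.04. The difference between these sets was not tested.

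Other genes of replication and of the G1/S border gave the setting. Of 44 other replication genes, 17 were higher (38.6%) and 4 lower (9.09%) in FGFR1;MYCN than in 14-day tumors, where 19.6% of all genes were higher and 23.7% lower. The largest differences were in Wdhd1 (1.83 ± 0.20), Chaf1b, a histone chaperone subunit that follows the fork (1.61 ± 0.44), Recql4 (1.40 ± 0.20), Ticrr, which brings CDC45 to origins (1.34 ± 0.32), Atad5, which unloads PCNA (1.25 ± 0.24), and Pold4, a small subunit of polymerase delta, which was lower (-1.20 ± 0.22). Against the 6- to 7-day tumors (10.2% of all genes higher and 18% lower) 1 was higher, Wdhd1 (0.80 ± 0.18), and 4 were lower, Samhd1, an enzyme that breaks down nucleotides (-0.65 ± 0.16), Pold4 (-0.63 ± 0.23), Pold3, a further subunit of polymerase delta (-0.35 ± 0.10), and Dguok, the mitochondrial deoxyguanosine kinase (-0.29 ± 0.10). Against all FGFR1 tumors 11 were higher and 4 lower (19.5% and 24.5% of all genes).

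Among 34 G1/S regulators, 11 were higher (32.4%, against 19.6% of all genes) and 7 lower (20.6%, against 23.7%) than at 14 days. Against 6 to 7 days 6 were higher (17.6%, against 10.2%) and 9 lower (26.5%, against 18%). Lower against 14 days were Cdkn1c and Cdkn2c, inhibitors of cyclin-dependent kinases (-2.44 ± 0.33 and -2.10 ± 0.26), the D-type cyclins Ccnd3 and Ccnd2 (-2.37 ± 0.26 and -2.37 ± 0.35) and Cdk2, the kinase partner of cyclin E (-1.66 ± 0.19). Cdkn2a, another inhibitor locus, was higher (1.77 ± 0.43). Against 6 to 7 days Cdkn2a was again higher (2.60 ± 0.46), and Cdk6 (-2.04 ± 0.33), Ccnd2 (-2.03 ± 0.35), Cdkn1c (-1.93 ± 0.33), Cdkn2c (-1.87 ± 0.26) and Cdk2 (-1.72 ± 0.19) were lower. Against all FGFR1 tumors 9 were higher and 10 lower (19.5% and 24.5% of all genes). Ccne1, cyclin E, was also higher than at 14 days (1.35 ± 0.33).

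The mean level of the members had its widest range among the FGFR1;MYCN tumors. The mean log2 CPM of the 44 ran from 3.84 in tumor 1 over a median of 4.41 to 5.27 in tumor 5, which is a 2.69-fold range, against 1.28-fold at 6 to 7 days and 1.59-fold at 14 days (4 tumors each). Tumor 10 reached 5.10, with 43 of 44 members above their own mean over the 19 tumors, and tumor 1 had 1. The SD of a member within the FGFR1;MYCN group had a median of 0.53, against 0.42 at 14 days and 0.22 at 6 to 7 days, and was larger than at 6 to 7 days for 43 of 44 members (72.2% of all genes tested). The median SD over all genes tested was 0.49 in the FGFR1;MYCN group, 0.48 at 14 days and 0.32 at 6 to 7 days, and no test of spread was run. The groups differ in size, 11 against 4 tumors. Without tumor 11 the range of the mean was the same, since neither end was that tumor. Which tumors form the ends depends on the TMM factors, however. As a share of all counts, the members were lowest among FGFR1;MYCN tumors in tumor 11 (0.0748%, TMM factor 0.567). The share was 0.0931% in tumor 1 (factor 1.124), 0.2062% in tumor 10 (1.003) and 0.2035% in tumor 5 (0.8119).

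**Figure D5:**
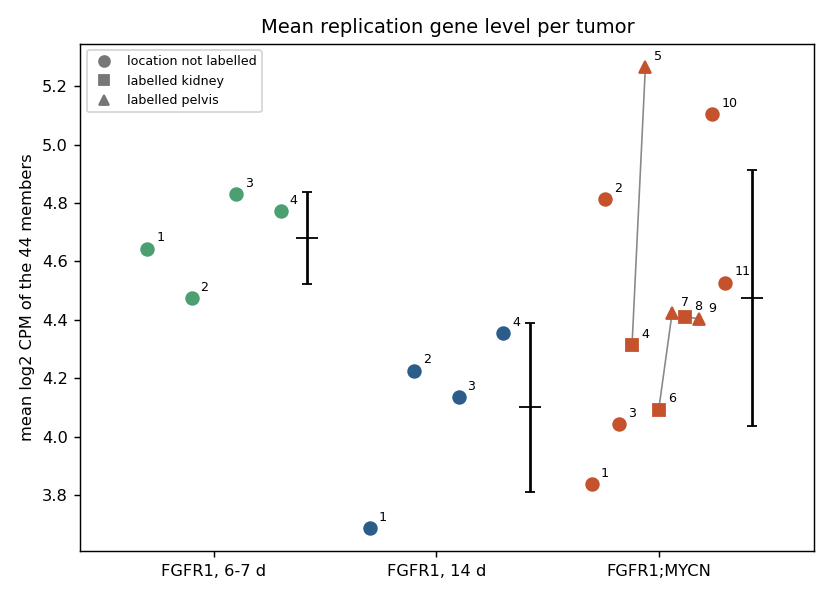
Mean log2 CPM of the 44 members in each tumor, by group, with replicate numbers; squares and triangles are tumors labelled kidney and pelvis, lines join tumors of the same mouse, and bars give the mean and SD. FGFR1;MYCN tumors span 3.84 to 5.27, and tumors 4 and 5 of the same mouse lie at 4.31 and 5.27.

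Across the 19 tumors a member followed the mean of the other members with a median Pearson r of 0.79, as a description over tumors that share groups and scaling. The r was above 0.8 for 22 members and highest for Mcm5 and Mcm7 (0.94 each). Outside all lists, the genes whose log2 CPM was most like the members' mean were Cdca8 (r = 0.98), Cdc20 (0.98), Knstrn (0.97), Sgo1 (0.96) and Fignl1 (0.96). Per kilobase of exon, Pcna had the highest mean level (52.3 CPM per kb) and Cdc6 the lowest (1.12 CPM per kb).

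The last comparison sets the pelvic tumors of 3 mice against the adrenal tumors, labelled kidney, of the same mice. No member passed (0 of 44, 0.0% of all 17901 genes in either direction by edgeR), 0 members had an unadjusted p under 0.05, and DESeq2 also called 0. The fitted values leaned one way, with 41 of 44 above 0 and a median of 0.53 (50.8% of all genes were above 0). With the mouse as a block, 13 genes in all were higher (0.0726%), and 0 of them were members.

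The lean came from 2 of the 3 mice. In the mouse of tumors 4 and 5, 40 of 44 members were higher in the pelvic tumor, with a median difference of 1.07 log2 and the largest in Rpa3 (2.66). Pole went the other way there (-0.67). In the mouse of tumors 6 and 7, 42 members were higher, with a median of 0.29, and in that of tumors 8 and 9, 20 were higher and 24 lower, with a median of -0.02. Pcna, for example, was 6.59 in adrenal tumor 4 and 8.57 in pelvic tumor 5, and 6.58 and 6.59 in tumors 8 and 9. Markers of other cells differed between these tumors too. The marker lists were written with earlier results of these data known, so their p-values are not independent support. Of all 17901 genes, 459 were higher and 489 lower at an unadjusted p under 0.05 (edgeR), and 744 were higher with fully separate groups. Of the epithelial markers, 5 of 5 tested were higher in the pelvic tumors (median log2 fold change 5.21, each at an unadjusted p under 0.05, smallest adjusted p = 0.168, edgeR, and each with fully separate groups). They took 0.0023% to 0.0226% of counts there, against 0.000227% to 0.000491% in the adrenal tumors. All 8 Schwann lineage markers were below 0 (median -1.21, 5 at an unadjusted p under 0.05), with 0.0053% to 0.0166% against 0.0206% to 0.0383% of counts. Adrenal cortex genes were below 0 in 6 of 6 cases, with a median of -7.40. The part of these cells in the members' values was not tested.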

How the data were processed

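RNA of 19 tumors was analysed as 11 FGFR1;MYCN, 4 FGFR1 at 14 days and 4 FGFR1 at 6 to 7 days. The authors quantified reads with Kallisto 0.44.0 on mouse (GRCm38) and human transcripts and summed them to genes with tximport; the deposited table holds expected counts (estimated counts) as whole numbers. The deposited second table holds log2 values, variance-stabilized by the authors with DESeq2 1.32.0 (versions of Kallisto, R 4.2.2 and DESeq2 per the submitters' processing notes), and served 1 alternative.

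Genes reaching 10 counts in 4 tumors or more entered 1 edgeR 4.0.16 fit of the 3 groups (TMM, quasi-likelihood test, Benjamini-Hochberg, threshold 0.05, R 4.3.3). The comparison with all FGFR1 tumors asked for 8 tumors, the paper's filter, and that of location for 3. SE is the absolute log2 fold change over the square root of the F statistic. The study used DESeq2's Wald test, which was run here (1.42.0) as an alternative, beside limma 3.58.1, other scaling and filters, sums per mouse and leaving out each tumor. Tumors of a mouse count as separate samples, as in the study, and p-values measure spread between tumors.

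Same-mouse tumors of different location pair by mouse, and their deviations correlated at 0.253, 0.193 and 0.319 across genes. Positions and shared 31-base words came from GENCODE vM21 (GRCm38), promoters from RefSeq (GRCm38.p6).

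All members were accounted for. Per-tumor values were given for the highest member of each role, for the largest difference past the threshold against 14 days, and for the largest changes of each comparison. From each of the other replication and G1/S lists up to 6 genes a comparison were named by their largest differences past the threshold. Pole3, Pole4 and Ccne1 were named outside that rule. The members and lists were chosen with earlier results of these data known.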

Additional observations from a re-analysis of the deposited data

Results flagged for a closer look

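Of 88 sets of 4 tumors (44 members in the 2 FGFR1 age groups), 2 held a tumor whose gap to its nearest neighbour was too large a part of the whole range by the 95% critical value of Dixon, and about 1 in 20 such sets does so by chance. Mcm8 was 2.76 log2 CPM in the second 14-day tumor, and 2.48 to 2.495 in the other 3 (gap 0.933 of the range). Without that tumor Mcm8 kept its call against the 14-day tumors. Pold2, a subunit of polymerase delta, was 4.94 in the third 6- to 7-day tumor and 4.40 to 4.48 in the other 3 (gap 0.847 of the range). In that tumor liver genes took 6.24% of the counts.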

How the results depend on the processing

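Of 642 values of called members under the alternatives, 605 kept their direction and their side of the threshold, 37 no longer passed and 0 changed sign. Of 230 counts of members, 217 stayed within 1.5 times the reported count. With DESeq2 the members lower at 14 days numbered 4 in place of 0, and those higher in FGFR1;MYCN than in 14-day tumors 16 in place of 10, the added ones being Cdt1, Gins1, Mcm2, Mcm7, Prim1 and Tyms. Without a filter on low counts 3 members in place of 5 were lower than at 6 to 7 days, and where every tumor had to reach 10 counts 4 in place of 2 were lower than in all FGFR1 tumors. The cause was not tested. Leaving out each tumor in turn gave 9 to 15 higher and 0 to 2 lower members against the 14-day tumors, 2 to 2 higher and 2 to 6 lower against the 6- to 7-day tumors, 3 to 6 higher and 2 to 5 lower against all FGFR1 tumors, and 0 for age and location in both directions. With the mouse as a replicate block the location comparison called 0 members in either direction (smallest adjusted p = 0.646), and this block was fitted for no other comparison. With the mouse as a random effect (limma), Cdc45 no longer passed against all FGFR1 tumors (adjusted p = 0.0988), while Pola2 passed there as lower, Cdt1 as higher than at 14 days and Gins2 as lower than at 6 to 7 days. With the tumors of a mouse summed, Pold1 no longer passed against 6 to 7 days and Gins2 passed as lower. RLE factors in place of TMM moved the median of all genes by at most 0.0897 (log2). Of 44 members, 13 share over 10% of their 31-base words with other mouse genes, Fen1 most (79.6%). Words shared with the human transcripts of the authors' reference were not counted. Mcm7 (33.4%), Pcna (23.3%) and Orc1 (11.0%) are among them. The lowest estimated count of a member in any tumor was 118.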
